A study of Mus musculus with 6 samples.

Results

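Polyamine synthesis and hypusine formation were followed through 10 genes, Odc1, Amd1, Srm, Sms, Oaz1, Sat1, Smox, Dhps, Dohh and Eif5a, among the 19386 genes of the authors' deposited table, of which 12082 carried an adjusted p-value. All 10 genes were among these 12082. They were chosen by name with their group means in room air and in cigarette smoke known, so their expression is described here without a test of its own, while the splicing events within them were taken whatever their levels. The study sequenced RNA from bone marrow-derived macrophages, which were grown from marrow cells in medium with L929 supernatant, the source of the growth factor that drives macrophage differentiation. All mice were wild-type C57BL/6 and breathed either room air or cigarette smoke before their marrow was taken, and culture lasted until day 11. Each group has 3 libraries, and both share the genotype, the strain and the culture. The age of the mice and the dose and length of the exposure are not given in the sources used here.

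Polyamines are small, positively charged metabolites that bind RNA and are needed for growth and translation. Putrescine is made from ornithine by ornithine decarboxylase, and spermidine and spermine are built from it with aminopropyl groups donated by decarboxylated S-adenosylmethionine, while acetylation and oxidation run the path backwards. Spermidine also provides the side chain of hypusine, an amino acid formed on the translation factor eIF5A, and polyamines and hypusine are known to shape how macrophages respond to activating signals.

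The sequences below are the sites at which the pathway reads polyamine levels or is modified by them, and the results return to each. In Sat1, the gene of the enzyme that acetylates spermidine and spermine, a cassette exon (an exon that is either included or skipped) brings a stop codon into the reading frame. A stretch of 30 bases of the messenger RNA is shown with and without it. The first 16 bases, from the exon before, are shared, and the last 14 come from the cassette exon or, where it is skipped, from the next exon, with the stop codon in capitals.
Sat1 with the cassette exon: cactggacccctgaaggttacagtctcTAG
Sat1 without the cassette exon: cactggacccctgaaggacatagcattgtt
In Oaz1, the antizyme gene, ribosomes reach a stop codon after 68 codons and make the full protein only by skipping 1 base, a step that polyamines promote. The stop codon of the first frame is in capitals, at chr10:80828295-80828297 on the plus strand, and the frame entered by skipping 1 base holds 227 codons in all.
Oaz1 frameshift site: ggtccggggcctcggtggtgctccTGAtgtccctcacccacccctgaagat
In Eif5a and its second copy Eif5a2, the lysine that becomes hypusine is at codon 50, shown in capitals. Both stretches cross an exon junction, and the full coding sequences were 72.7% identical.
Eif5a hypusine codon: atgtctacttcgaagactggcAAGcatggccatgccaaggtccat
Eif5a2 hypusine codon: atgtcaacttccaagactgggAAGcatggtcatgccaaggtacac
These sequences are from GENCODE M21 transcripts on GRCm38.

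Among the synthesis genes, Odc1 and Srm, which make putrescine and spermidine, were called higher after cigarette smoke, and Amd1 and Sms were not called. In the authors' deposited table, 5 of the 10 genes passed an adjusted p under 0.05, all of them higher after smoke (Odc1, Srm, Oaz1, Dohh and Eif5a), beside 4.15% of all tested genes called higher and 3.53% called lower. Since the genes were chosen with this contrast known, nothing is read from that count. Among the 10 genes the median log2 fold change was 0.50 by the authors' deposited table, beside -0.0029 over all tested genes. Of the 10, 8 were positive, beside 5999 of all 12082 tested genes. The table gives each group as the authors' mean of size-factor-normalized counts, so the spread between libraries and any overlap of the groups cannot be shown for expression.

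**Figure D1:**
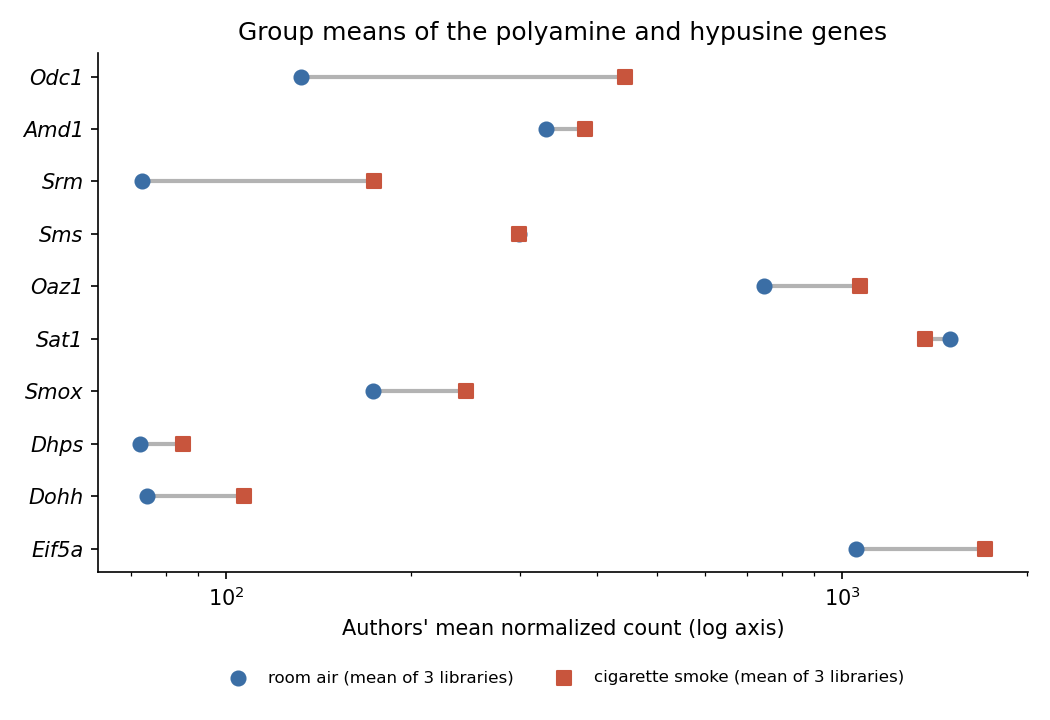
Group means of the 10 genes in the authors' deposited table (normalized counts, log axis), with circles for room air, squares for cigarette smoke and no error bars because the table holds means only. The widest gaps are those of Odc1 (132.3 and 444.5) and Srm (72.9 and 174.0), and the markers of Sms lie on each other (299.5 and 299.2).

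Odc1 encodes ornithine decarboxylase, the enzyme that commits ornithine to the pathway (chr12:17544794-17551505, plus strand). The authors' deposited table put it at 132.3 normalized counts in room air against 444.5 after smoke, 3.38-fold more (log2 fold change 1.76, SE 0.46, adjusted p 0.00652). This was the largest fold change of the 10 genes and also the one with the largest standard error. The authors fitted 24 libraries together, of which 18 are not analysed here, and the mean of Odc1 over all 24 in the authors' deposited table was 3492, above both group means. Libraries not analysed here thus entered its standard error.

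Srm encodes spermidine synthase (chr4:148591503-148594993, plus strand). The authors' deposited table put it at 72.9 normalized counts in room air against 174.0 after smoke, 2.38-fold more (log2 fold change 1.25, SE 0.17, adjusted p 6.54e-10). By p-value it ranked 1 among all genes of the authors' deposited table. Srm had the narrower error of the 2 synthesis genes called higher, at 0.17 against 0.46 for Odc1.

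Amd1 encodes S-adenosylmethionine decarboxylase, which supplies the aminopropyl groups (chr10:40287458-40302186, minus strand). Means in the authors' deposited table were 330.6 for room air and 382.2 for smoke (log2 fold change 0.21, SE 0.17, adjusted p 0.508). The Amd1 value is uncertain, because the transcripts of Amd1 and Amd2 are 99.1% identical and reads can be split between them. Amd2 itself had means of 60.9 and 91.2 in the authors' deposited table (log2 fold change 0.56, SE 0.28, adjusted p 0.206). Sms encodes spermine synthase (chrX:157443855-157492287, minus strand) and had the value nearest to 0: the authors' deposited table gave means of 299.5 and 299.2 (log2 fold change -0.02, SE 0.13, adjusted p 0.965). The enzymes that make spermidine and spermine thus differed in their values, but that difference between genes was not tested.

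Oaz1, whose frameshift site is printed above, encodes the antizyme that sends ornithine decarboxylase to the proteasome (chr10:80826656-80829290, plus strand). The authors' deposited table put it at 748 normalized counts in room air against 1070 after smoke (log2 fold change 0.51, SE 0.15, adjusted p 0.0176). The Oaz1 call was lost with the trend in GC content and length removed, at a log2 fold change of 0.30 (adjusted p 0.435), or 0.18 (adjusted p 0.772) with protein-coding transcripts in the trend. Antizyme protein depends on the frameshift, which RNA levels do not measure.

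The catabolic genes were not called in either direction. Sat1 (chrX:155213132-155216449, minus strand) was at 1497 in room air against 1363 after smoke by the authors' deposited table (log2 fold change -0.13, SE 0.16, adjusted p 0.698). Smox encodes spermine oxidase, which turns spermine back into spermidine and releases hydrogen peroxide (chr2:131491496-131525922, plus strand). Means in the authors' deposited table were 173.4 and 245.2 (log2 fold change 0.49, SE 0.23, adjusted p 0.172). The Smox estimate was close in size to those of Oaz1 and Dohh but had a larger error.

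In the hypusine branch, the substrate Eif5a and the second enzyme Dohh were called higher. The first enzyme, Dhps, was not called, and the difference between the enzymes was not tested. Eif5a (chr11:69916714-69921958, minus strand) was at 1054 in room air against 1709 after smoke by the authors' deposited table, where it ranked 5 by p-value (log2 fold change 0.70, SE 0.11, adjusted p 4.42e-07). Dhps encodes deoxyhypusine synthase, which moves the aminobutyl group of spermidine onto the lysine of eIF5A (chr8:85071757-85075162, plus strand), and by the authors' deposited table had means of 72.6 and 85.1 (log2 fold change 0.24, SE 0.17, adjusted p 0.435). Dohh encodes the hydroxylase that completes hypusine (chr10:81384428-81388352, plus strand), with means of 74.5 and 106.8 by the authors' deposited table (log2 fold change 0.51, SE 0.17, adjusted p 0.0352). The Dohh call was lost when p-values were adjusted over every gene with a p-value (adjusted p 0.0556) and with the trend in GC content and length removed (log2 fold change 0.06, against -0.07 for Dhps). The Dohh value is also uncertain, because the annotated gene Gm48551 overlaps it by 3887 bases on the same strand, with means of 63.8 and 81.8 in the authors' deposited table. Eif5a2 had means of 129.4 and 98.5 by the authors' deposited table (log2 fold change -0.40, SE 0.32, adjusted p 0.492).

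Per length, the 10 genes fell into 2 levels. On the scale of the authors' mean normalized counts per kb of the longest protein-coding transcript, Sat1, Eif5a and Oaz1 stood at 1288, 734 and 699 in room air, and the other 7 lay between 51.6 (Dohh) and 103.2 (Amd1). In cigarette smoke the order on this scale began with Eif5a at 1189 and Sat1 at 1173, followed by Oaz1 at 999 and Odc1 at 201.3. Odc1 and Srm, at 59.9 and 54.5 per kb in room air, were below Amd1 and Sms there and above both after smoke, with Srm at 130.1 and Amd1 at 119.3. Whether neighbours in these orders differ beyond their spread cannot be told from means alone.

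Fold changes in this comparison ran with transcript composition over the whole table. Across 12071 tested genes, the log2 fold change of the authors' deposited table had a Spearman correlation of 0.483 with the GC content of the longest transcript and of -0.448 with its length, given as a description since genes are not independent. All 5 genes called higher here have shorter transcripts with more GC than the median gene: Srm has 1338 bases and 59.8% GC, and Dohh has 1444 bases and 62.5%, against medians of 3250 bases and 49.4% over all genes. With the trend removed and the authors' standard errors kept, 3 of the 10 were called higher, beside 0.828% of the genes in that fit. These were Srm at 0.85 (adjusted p 0.000334), Eif5a at 0.41 (adjusted p 0.0228) and Odc1 at 1.59 (adjusted p 0.0478), each a log2 fold change. With the longest protein-coding transcripts in the trend the count was again 3, beside 0.779%. Neither the Oaz1 call nor that of Dohh, at 0.06 (adjusted p 0.964), was kept. Dhps changed sign to -0.07 and Sms to 0.12, neither of them called. GC content, length and exposure cannot be told apart for a gene that lies at one end of the trend, as Dohh and Srm do. The trend alone came to a log2 fold change of 0.45 for Dohh and 0.40 for Srm.

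**Figure D2:**
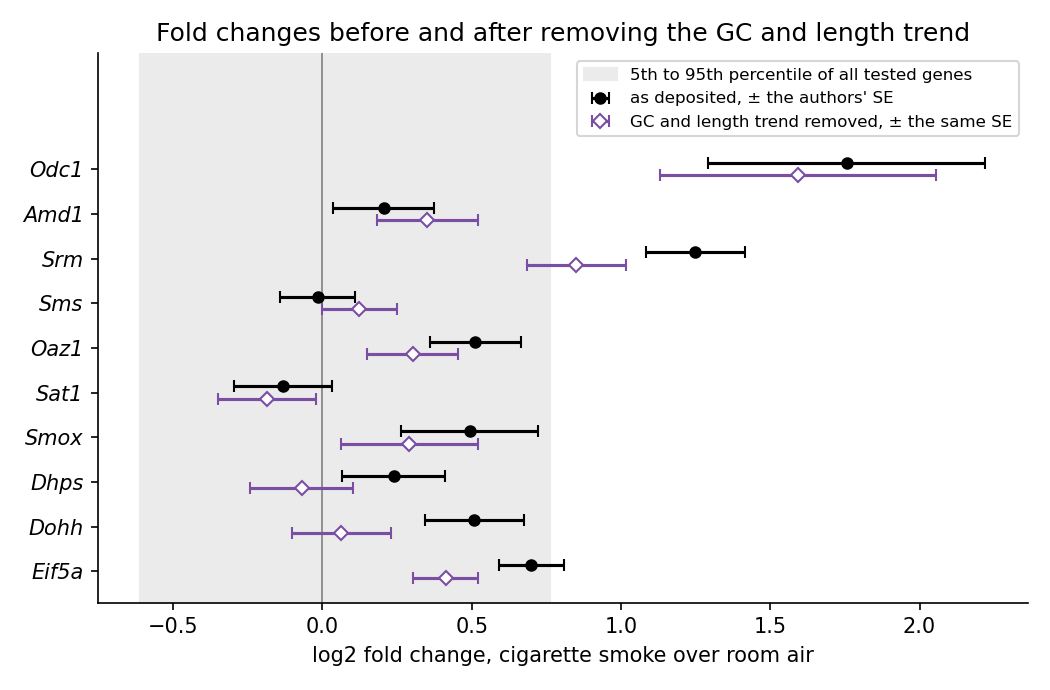
Log2 fold changes of cigarette smoke over room air with the authors' standard errors, as deposited (filled circles) and with the GC and length trend removed (open diamonds), over a grey band from the 5th to the 95th percentile of all tested genes (-0.61 to 0.76). As deposited, Odc1 and Srm lie above the band, and with the trend removed both stay above it, at 1.59 and 0.85.

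A shared promoter motif was looked for among the 10 genes because several of them moved the same way. The motif was the E-box with the letters CACGTG, which MYC and MAX are known to bind and which reads the same on both strands. RefSeq promoter windows on GRCm38.p6, from 250 bases before to 50 bases after a gene's start, were held for 9 of the 10 genes, not for Srm. The letters were found in windows of 3 of these 9 genes, Dohh, Eif5a and Sms, and in those of 8.09% of the 27025 genes in the table. A gene can have several windows, which can overlap. The 9 genes had 15 windows, 5 of them with the letters, beside 7.15% of all 32851 windows. The 30 bases around each match are printed with the motif in capitals, in the order Dohh (first base of the motif at position 3 from the start), Eif5a (at position -74 of one start and, for a second site, at position -178 of another) and Sms (at position -196).
Dohh at chr10:81384424-81384453, plus strand: gcccagcatggtCACGTGgccatcaagatg
Eif5a at chr11:69921443-69921472, minus strand: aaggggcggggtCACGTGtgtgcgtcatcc
Eif5a at chr11:69920791-69920820, minus strand: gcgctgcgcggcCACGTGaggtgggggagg
Sms at chrX:157492466-157492495, minus strand: cccagcggggttCACGTGcatttaaagaaa
Of the 3 genes with the letters, Eif5a and Dohh were called higher in the authors' deposited table and Sms was not. Of the other genes called higher with a window, Odc1 and Oaz1, neither had the letters there. Bases outside the windows, such as the rest of each gene, were not searched.

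The rest of the pathway is given as lists by role, to be read beside the 7.69% of all tested genes called in either direction: in lists this short, a count of 0 calls is near that share. For the supply of ornithine no count is given for the list. Oat, which makes or uses ornithine in mitochondria, had means of 463 and 527 and a log2 fold change of 0.17 (SE 0.12) in the authors' deposited table. None of 3 tested genes of the antizyme system was called, with a median log2 fold change of -0.06. Azin1, the inhibitor of antizyme, was the largest of these at -0.17 (SE 0.19), with means of 795 and 707 in the authors' deposited table. None of 4 other synthesis and catabolism genes was called (median -0.01), of which Amd2, given above, had the largest value.

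The methionine cycle and salvage list, which renews S-adenosylmethionine and recycles the by-product of aminopropyl transfer, had no call among 8 tested genes and a median log2 fold change of 0.22. Mri1, a salvage enzyme, had the largest value there, with means of 45.6 and 70.0 by the authors' deposited table (log2 fold change 0.60, SE 0.25, adjusted p 0.113). Transport of polyamines and arginine had no call among 6 tested genes and a median of 0.45. Slc7a5, a large neutral amino acid transporter, came nearest with means of 74.3 and 163.5 by the authors' deposited table (log2 fold change 1.13, SE 0.40, adjusted p 0.0542). The MYC network, whose factor MYC is a known driver of Odc1 and Srm, had no call among 5 tested genes and a median of 0.18. All 5 were positive, beside 5999 of all 12082 tested genes. Their signs were not read as a direction of MYC activity, which was not tested. Myc had means of 38.5 and 80.8 by the authors' deposited table, just outside the threshold (log2 fold change 1.03, SE 0.37, adjusted p 0.0579).

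**Figure D3:**
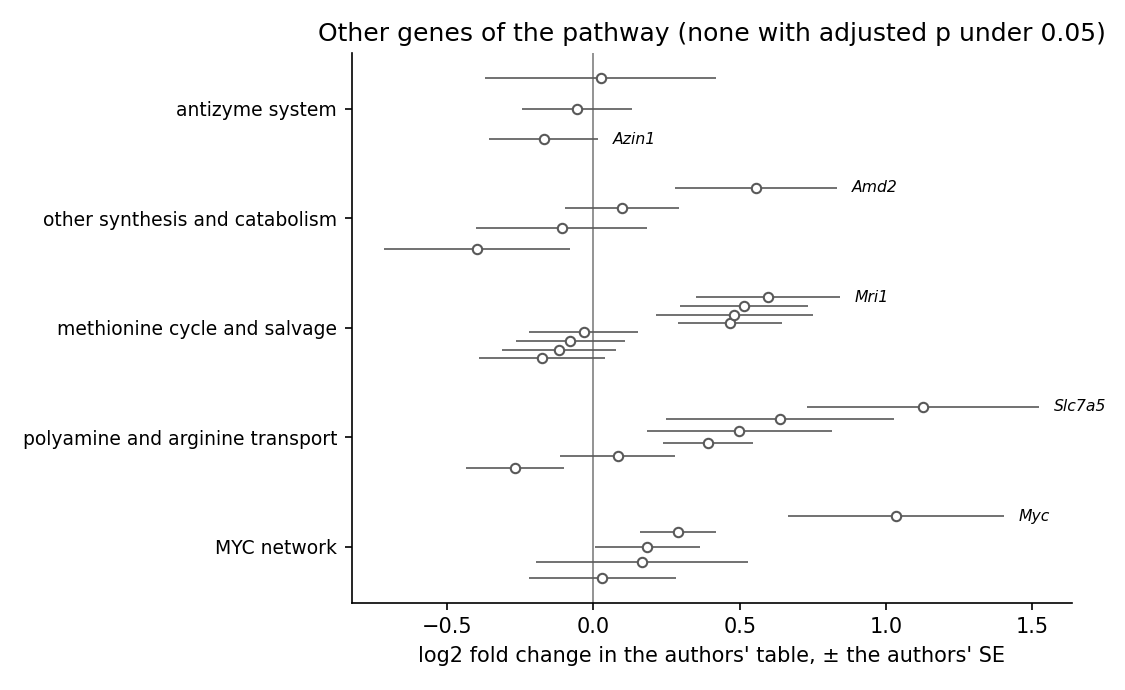
Log2 fold changes with the authors' standard errors for the tested genes of 5 other pathway lists, each an open point because none had an adjusted p under 0.05 in the authors' deposited table. Slc7a5 (1.13) and Myc (1.03) are the points farthest to the right.

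The cultures carried the markers of their label. All 10 macrophage markers were listed, and none was called, beside 7.69% of all tested genes called in either direction. Their means in the authors' deposited table summed to 57169 for room air and 57735 for smoke, sums in which Lyz2 and Csf1r weigh most. Single markers had values on both sides, among them Mrc1 with means of 3601 and 2196 (log2 fold change -0.71, adjusted p 0.0836) and Fcgr1 with 537 and 762 (0.51, adjusted p 0.218) by the authors' deposited table. Markers of neutrophils and erythroid cells stayed under 1 normalized count and those of B, T and NK cells under 10. Of 8 neutrophil markers 3 were listed, with a highest mean of 0.313 in the authors' deposited table, and of 6 erythroid markers 1 was listed, with a highest mean of 0.508. The 5 stromal markers, none of them called, summed to 44.5 and 10.2, and Itgax, a dendritic cell marker that macrophages also carry, had means of 31.7 and 107.8 (adjusted p 0.0571) in the authors' deposited table. Of 6 proliferation genes none was called, 3 were positive and their log2 fold changes had a median of 0.0041. Their means in the authors' deposited table summed to 9233 and 7355, a gap carried by Mki67 (4719 and 3178) and Top2a (2347 and 1866). The part of these genes in the results was not tested, and in bulk RNA fewer cells of a type and less RNA per cell cannot be told apart.

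Splicing was given for each library as a percent inclusion level by JuncBASE, a program that classifies splicing events from junction reads. Read counts per library were not used here, so the depth behind each level is unknown. Cigarette smoke replicate 1 stands apart, with no value in 4169 of 10376 events, against 1 to 398 events in the other libraries. Levels of retained introns also differed over the whole table: among 1992 introns with 6 values, 92.5% had a lower mean after smoke, and library means were 14.7% to 16.7% in room air and 10.3% to 12.8% in cigarette smoke. Of 735 cassette exons with 6 values 53.3% had a lower mean after smoke, and their library means lay between 66.1% and 67.0%.

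JuncBASE listed 14 events within 5 of the 10 genes, 6 in Smox, 4 in Sat1, 2 in Dohh and 1 each in Amd1 and Sms. It listed none in Odc1, Srm, Oaz1, Dhps or Eif5a. Events were assigned by position and strand. A Smox event with an unannotated junction (chr2:131512218-131516219) carries another locus label than the other Smox events. With limma fitted over all 10376 events, 0 of the 14 had an adjusted p under 0.05, beside 0% of all events, and 0 had an unadjusted p under 0.05, beside 10.8% of all events. By the authors' own p in their deposited table, a single one of the 14 was under 0.05, beside 4.15% of all events, and 0 by their corrected p. That event was the Sat1 cassette exon. Of the 8 events with a value in all 6 libraries, 2 had all smoke values below all room air values, beside 19.3% of such events in the whole table, and 0 had them all above.

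The Sat1 cassette exon lies at chrX:155215121-155215230, has 110 bases and is exon 4 of 7 in a transcript that GENCODE annotates as a target of nonsense-mediated decay. Transcripts that include it are known as a non-productive form of Sat1, and polyamines are known to favour skipping. The stop codon printed above is at bases 12 to 14 of the exon and ends the frame after 71 codons, against 171 codons in the transcript without it, and it lies 239 bases before the last exon junction. The inclusion level was 11.41%, 11.54% and 11.39% in room air replicates 1 to 3 and 5.45%, 5.26% and 7.46% in cigarette smoke replicates 1 to 3. All 3 smoke values were thus below all 3 room air values, and the room air libraries were nearly equal. The means were 11.4% ± 0.0814 (SD, n = 3) and 6.06% ± 1.22 (SD, n = 3), so smoke minus room air came to -5.39 points.

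That difference did not pass the test across events. On the log2 odds scale limma gave -0.92 (SE 0.43), with p = 0.0746 and an adjusted p of 0.481, and a two-sided exact permutation test had p = 0.1, the smallest that 3 against 3 allows. Among 735 cassette exons with 6 values, 6.12% had all smoke values below all room air values and 4.63% had them all above. By limma p the exon ranked 94 of 1256 cassette exons. The authors' deposited table gave it p = 0.0163 and a corrected p of 0.876. Without cigarette smoke replicate 1 the log2 odds difference was -0.85 (limma adjusted p 0.56). Without cigarette smoke replicate 3 it was -1.06 (limma adjusted p 0.145).

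**Figure D4:**
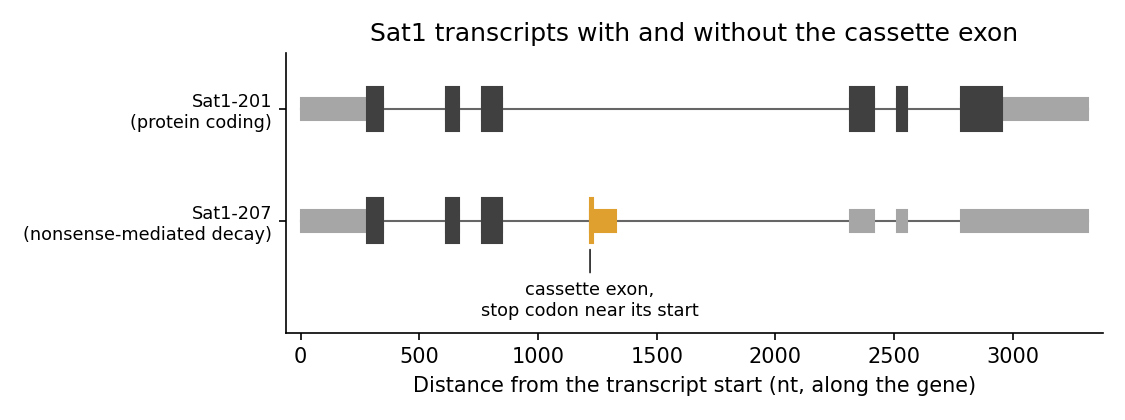
Exons of the Sat1 transcripts with and without the cassette exon, drawn to scale as distance from the transcript start, with tall boxes for coding and low boxes for untranslated sequence. The cassette exon is coloured, and only its first 14 bases are coding.

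The long Sat1 intron that holds this exon, chrX:155214135-155215600 with 1466 bases, was also measured as a retained intron. Its retention level was 30.89%, 32.35% and 28.97% in room air and 23.53%, 23.40% and 21.85% in cigarette smoke, a difference of -7.81 points with no overlap. Limma gave p = 0.229 and an adjusted p of 0.599, the exact permutation test gave p = 0.1, and 38.7% of the 1992 introns had all smoke values below all room air values. The shorter introns on either side of the cassette exon did overlap between the groups. The one before it (chrX:155215231-155215600) was at 81.43%, 76.30% and 76.40% in room air and 78.95%, 78.26% and 78.57% in cigarette smoke. The one after it (chrX:155214135-155215120) was at 86.57%, 90.38% and 86.67% in room air and 76.47%, 87.50% and 86.13% in cigarette smoke. Their high levels are measured against junctions of the cassette exon, which are rare. The 4 Sat1 events share junctions and are not independent.

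**Figure D5:**
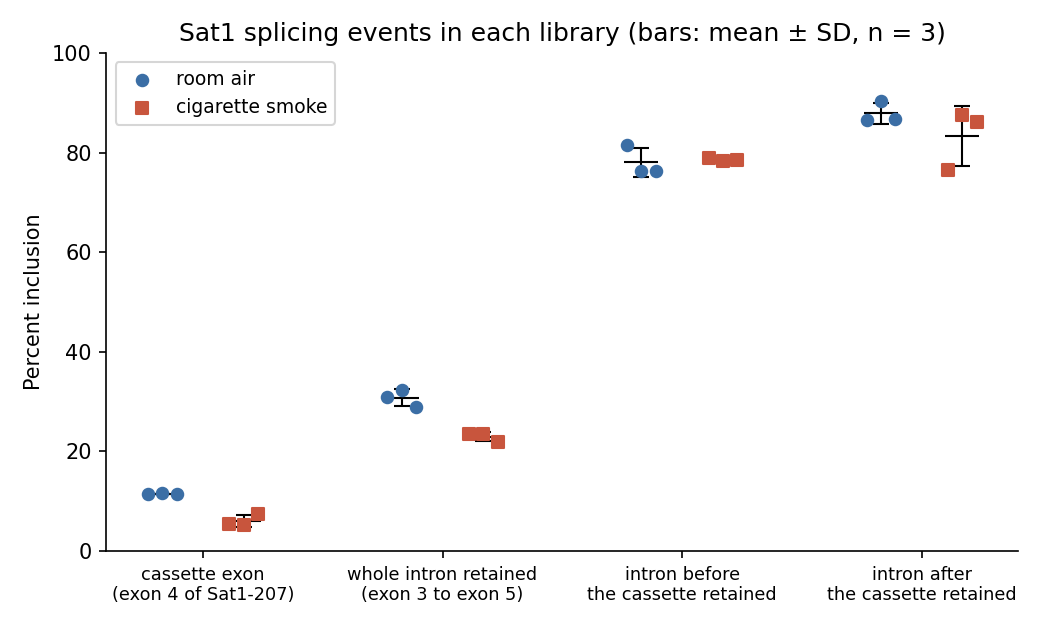
Percent inclusion of the 4 Sat1 events in each library, with circles for room air, squares for cigarette smoke and black bars for mean ± SD (n = 3). The groups are apart for the cassette exon (11.39% to 11.54% against 5.26% to 7.46%) and the whole intron (28.97% to 32.35% against 21.85% to 23.53%), and they overlap for the 2 shorter introns.

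In Sms, an intron at chrX:157460417-157461175 was retained at 17.65%, 19.51% and 11.59% in room air and 7.69%, 14.29% and 6.35% in cigarette smoke. The smoke mean lay below the room air mean, with a difference of -6.81 points, and the groups overlapped. Limma gave p = 0.15 and an adjusted p of 0.539, and the exact permutation test gave p = 0.2.

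None of the 6 Smox events had a limma p under 0.05, and the groups overlapped in each. A 90-base cassette exon at chr2:131524244-131524333 was included at 11.11%, 10.00% and 15.38% in room air and 13.33%, 11.76% and 9.80% in cigarette smoke. A 161-base cassette exon at chr2:131522059-131522219 was included at 77.78%, 100% and 85.71% in room air and 78.57%, 88.24% and 91.67% in cigarette smoke. The groups overlap in both, with limma p of 0.905 and 0.471 (adjusted p 0.959 and 0.721). The intron at chr2:131522220-131524742 was at 5.88%, 3.57% and 4.35% in room air and 7.14%, 0% and 6.12% in cigarette smoke (limma p 0.587, adjusted p 0.797). The other 3 Smox events had no value in cigarette smoke replicate 1 and limma p from 0.163 to 0.53.

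In Dohh, a donor site that adds 48 bases was listed as 2 event types, used at 5.56%, 4.55% and 5.56% in room air and at 0% and 5.56% in cigarette smoke replicates 2 and 3 by the one with exon reads (limma p 0.206, adjusted p 0.574). In Amd1, an acceptor that shifts the exon by 21 bases was used at 100% in the 2 room air libraries and at 90.91% and 100% in the 2 smoke libraries with values (limma p 0.242, adjusted p 0.612). Both genes lack a value in cigarette smoke replicate 1. Mean retention over the 5 introns of Sat1, Sms and Smox with 6 values was 44.5%, 44.4% and 41.6% in room air and 38.8%, 40.7% and 39.8% in cigarette smoke, a difference of -3.75 points, beside a median of -3.84 over the 1992 introns. The groups do not overlap in that mean, and its size is near that of all introns.

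The authors' deposited rMATS table, a second comparison of retained introns, held 1 intron each of Oaz1, Odc1 and Smox on the gene's own strand. Its 2 sample sets are not named, so no direction is given. The first intron of Oaz1 (chr10:80826906-80828236, 1331 bases) differed by 1.1 percentage points with a false discovery rate of 0.000295 by the authors' deposited table, in which 14.5% of introns were under 0.05. The introns of Odc1 (chr12:17547401-17547632) and Smox (chr2:131520647-131521054) each differed by 1.9 points in size, and the authors' deposited table gave them false discovery rates of 0.927 and 0.971.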

How the data were processed

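The genes and the other pathway and marker lists were chosen with earlier results of these data known. STAR, DESeq2, SAMtools 1.9, bedtools 2.27.1 and the build mm10 are named in the submitters' processing notes; other versions and filters are not given in the sources used here. The authors deposited group means of size-factor-normalized counts (a signal, from a fit to 24 libraries), log2 fold changes with standard errors, Wald scores, p-values and adjusted p-values. The deposited JuncBASE table holds percent inclusion per library, and its difference of medians and p-values are the authors'. The deposited rMATS table gives a difference of inclusion fractions, p-values and false discovery rates, and its 6 columns of per-sample values were not used because its sets are not named.

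No count of reads per library was used, so the planned count tests were replaced as the design laid down, and depth is unknown. Inclusion levels p were turned into log2((p + 1)/(100 - p + 1)) and group effects were estimated by limma 3.58.1 (R 4.3.3) for events with at least 2 values in each group, with Benjamini-Hochberg adjustment over all 10376 events. Exact permutation tests used scipy 1.17.1. Deposited log2 fold changes were modelled on GC content and log2 length by natural splines of 4 degrees of freedom (statsmodels 0.14.6, patsy 1.0.2), for 99.9% of the tested genes. Both steps were also run on simulated data with known changes, and the share of changes recovered is not given here. Positions and transcripts came from GENCODE M21 on GRCm38 and promoters from RefSeq. All 10 genes were named, and a gene of another pathway list was named with values where it passed the authors' threshold or had the largest absolute log2 fold change among genes with a mean of at least 50. Eif5a2, the single cell type and proliferation markers and the overlapping gene Gm48551 were named after their values were seen. The labels number the libraries of each group without saying that they came from separate mice. The limma p-values for splicing therefore measure the spread between these libraries, which may be technical. The authors' expression p-values rest on a fit to 24 libraries, 18 of them not analysed here, so they do not measure the spread between these libraries alone. Thresholds, the low-count filter, pseudocounts, scales, event filters, a replicate block and leaving out each library were tried as alternatives. A result on the supply of ornithine is not reported here.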

Additional observations from a re-analysis of the deposited data

How the results depend on the processing

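The count of 5 genes called higher moved to 3 at an adjusted p under 0.01, to 3 with the GC and length trend removed, and to 3 with the trend taken over the longest protein-coding transcripts, an alternative chosen after seeing the data; adjusting over every gene with a p-value gave 4, since Dohh was no longer called, and a threshold of 0.1, a minimum mean of 50 and median centring gave 5. With the trend removed Sms turned to 0.12 and Dhps to -0.069, and with the protein-coding transcripts to 0.15 and -0.039. The 1 Oaz1 intron called by rMATS became 0 at a minimum difference of 10 percentage points. Of the JuncBASE events none was called in any limma fit run, each of which held 8 to 14 of the 14 events. With the replicate block, 0 of the 14 were called. Libraries of the same number had correlations of their deviations of 0.0177, -0.0404 and -0.0888 over 5933 events. With 3 libraries a group and unknown depth, these values cannot tell whether the numbers mark pairs. For expression no paired analysis was possible because only group means were used. Leaving out libraries in turn turned the sign of the log2 odds difference of 4 of the 11 events for which this was computed, with values from -0.035 to 0.18 for the Sat1 intron before the cassette exon, -1.07 to 0.49 for the Smox intron, -0.19 to 0.14 for the 90-base and -1.93 to 0.52 for the 161-base Smox cassette exon. The authors' differences of medians for the last 3 were 1.77, 0.65 and 2.53 points, against negative differences of means. Over all events limma called 0 in the fit reported, 23 with a value in all 6 libraries and 718 without cigarette smoke replicate 3, and the cause was not tested. With 3 libraries a group, unknown depth and gene means only, neither small splicing differences nor the spread of expression between libraries can be judged.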
